A study of Mus musculus with 38 samples.

Results

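The genes of sterol and fatty acid synthesis were examined in mouse B cells on their way to antibody-secreting plasma cells. They were taken as a list of 36 gene symbols (in capitals in the tables, from SREBF1, INSIG1 and MVK to SCD1, SCD2 and PCYT1A) that covers the regulators of the pathway, the enzymes from acetoacetyl-CoA to cholesterol, a sterol carrier, the enzymes that make, elongate and desaturate fatty acids, and 3 enzymes of phospholipid synthesis. Of these, 35 had a row in the deposited RNA tables, among 11441 uniquely named genes of the tables used for the main tests, and Hmgcs1 is not analysed here.

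Cells sense sterols through the SREBP pathway. The transcription factors SREBP1 and SREBP2, encoded by Srebf1 and Srebf2, are made as membrane proteins of the endoplasmic reticulum and are carried to the Golgi by Scap, where proteases free the active factor. When sterols are plentiful, Insig1 and Insig2 hold Scap back in the endoplasmic reticulum. Most enzymes on the list are known targets of these factors. B cells that begin to secrete antibody are known to enlarge the endoplasmic reticulum, whose membrane is rich in phosphatidylcholine.

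The study followed B cells of C57BL/6 mice that carry a GFP reporter in 1 allele of Blimp1 (Prdm1), a transcriptional repressor that plasma cells need. RNA was measured in 14 libraries, 2 for each of 7 groups, and the 24 samples of other assays are not analysed here. Blimp1-deficient pre-plasmablasts were Blimp1(GFP/fl) Cd23(Cre/+) cells sorted as CD138–GFP+CD22hi, in which Cre is driven by a B cell gene. Control pre-plasmablasts (CD138–GFP+), plasmablasts (CD138+GFP+) and activated B cells (CD138–GFP–) were all Blimp1(GFP/+) Cd23(Cre/+), so these controls also carried Cre and only 1 intact Blimp1 allele. These 4 groups were cultured with lipopolysaccharide (LPS) for 4 days. In a further experiment Blimp1(GFP/+) cells without Cre were kept with LPS for 4 days and received GSK343, which blocks the histone-methylating enzyme EZH2, or DMSO alone, and CD138–GFP+ pre-plasmablasts were sorted. Plasma cells were sorted directly from Blimp1(GFP/+) mice as CD28+CD138+GFP+Lin–. Genotype and the added CD22 gate differ together between deficient and control pre-plasmablasts and cannot be told apart.

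Levels are in RPKM, which divides the reads of a gene by its length and by the size of the library. Differences are on the log2(RPKM + 1) scale with their standard error (SE), from limma fitted across all tested genes, and a gene was called higher or lower at a Benjamini-Hochberg adjusted p below 0.05. Groups are said not to overlap where both libraries of 1 lay above both of the other. Only for plasmablasts against control pre-plasmablasts was the share of all genes that did so computed. It was 26.4% lower and 15.8% higher there. With 2 libraries a group, non-overlap is thus common and adds no separate support to a call. Prdm1 itself stood at 199 and 171 RPKM in deficient pre-plasmablasts, against 429 and 327 RPKM in control pre-plasmablasts (log2 difference -1.02 ± 0.21, adjusted p = 0.0102). A gene-level value also holds transcripts of the GFP allele and of what remains of the floxed allele, so it checks the genotype only in part. The 6 listed plasma cell markers were all called higher in control pre-plasmablasts than in activated B cells, and all called lower in deficient than in control pre-plasmablasts. Among them is Prdm1, whose GFP reporter separated pre-plasmablasts from activated B cells in the sort. Cd22 was at 345 and 309 RPKM in deficient and 28.5 and 38.3 RPKM in control pre-plasmablasts, and at 493 and 470.0 RPKM in activated B cells. Of the 6 listed B cell markers, 4 were called lower in control pre-plasmablasts than in activated B cells, and Cd79a and Ms4a1 were not called. In deficient cells 5 of the 6 were called higher than in control pre-plasmablasts, among them Cd22, for which only deficient cells were sorted. Cd79a (0.72 ± 0.18) and Ms4a1 (0.79 ± 0.19) were also called higher in deficient than in activated B cells, and the others were not called.

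Markers of other cell types moved with some of the groups. Of the listed markers the main tables hold 1 of 6 for T cells, 2 of 6 for myeloid cells, 2 of 5 for natural killer or dendritic cells and 1 of 4 for erythroid cells. The globin gene Hbb-b1 stood at 10.8 and 10.1 RPKM in deficient and 0.338 and 0.651 RPKM in control pre-plasmablasts, at 0.124 and 0.0926 RPKM in plasmablasts and at 13.3 and 6.55 RPKM in activated B cells. Itgam stood at 9.65 and 14.1 RPKM in deficient and 0.508 and 0.675 RPKM in control pre-plasmablasts, at 0.282 and 0.497 RPKM in plasmablasts and at 11.01 and 10.2 RPKM in activated B cells. The T cell gene Lck stood at 4.82 and 4.45 RPKM in deficient and 1.74 and 2.75 RPKM in control pre-plasmablasts, at 2.07 and 2.79 RPKM in plasmablasts and at 6.91 and 7.63 RPKM in activated B cells. All 3 genes were thus higher in deficient pre-plasmablasts and in activated B cells than in control pre-plasmablasts and plasmablasts. Cd68, the other measured myeloid marker, differed from Itgam in its order, and the sum of both was 50.2 and 57.5 RPKM in deficient and 30.9 and 31.0 RPKM in control pre-plasmablasts, 31.5 and 28.2 RPKM in plasmablasts and 25.3 and 24.1 RPKM in activated B cells. Markers of natural killer or dendritic cells, almost all of it Flt3, summed to 23.6 and 22.5 RPKM in deficient and 17.7 and 15.9 RPKM in control pre-plasmablasts, 7.13 and 7.57 RPKM in plasmablasts and 48.7 and 45.4 RPKM in activated B cells. Flt3 was called lower in control pre-plasmablasts than in activated B cells (-1.44 ± 0.10), and Cd68 was called higher (1.06 ± 0.09). Their part in the differences given below was not tested. In bulk RNA, fewer cells of a type and less RNA per cell cannot be told apart.

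Promoter sequences are shown for 5 genes on which the results turn, because 3 of them (Insig1, Ebp and Pcyt1a) were higher and the other two (Mvk and Mvd) lower in pre-plasmablasts than in activated B cells. Each is the 250 bases before an annotated start in RefSeq (build GRCm38.p6, not the build of the RNA tables), 5′ to 3′ on the gene's strand. Capitals mark matches, on either strand, to the sterol response element SRE-1 in full (TCACCCCAC with an A before it), to TCACNCCAC (the same element with an open base), to CCAAT (read as ATTGG on the other strand) and to the E-box CACGTG. Pcyt1a has 3 annotated windows, of which the first is shown. The second overlaps it and holds the same match, and the third holds no match. Elovl6, the other gene called higher, is not shown, and its 1 annotated window holds no match to any of these elements.
Insig1 (chr5:28071162-28071411, plus strand): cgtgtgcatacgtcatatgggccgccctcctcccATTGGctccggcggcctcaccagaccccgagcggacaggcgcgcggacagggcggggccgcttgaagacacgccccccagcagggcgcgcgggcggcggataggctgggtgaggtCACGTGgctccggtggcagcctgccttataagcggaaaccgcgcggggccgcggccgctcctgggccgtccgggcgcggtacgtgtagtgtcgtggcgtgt
Ebp (chrX:8193513-8193762, minus strand): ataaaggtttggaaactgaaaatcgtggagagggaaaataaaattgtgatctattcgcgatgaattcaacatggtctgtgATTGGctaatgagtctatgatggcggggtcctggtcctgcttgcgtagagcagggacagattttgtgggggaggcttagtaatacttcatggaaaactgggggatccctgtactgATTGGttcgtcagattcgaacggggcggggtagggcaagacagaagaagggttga
Pcyt1a (chr16:32430671-32430920, plus strand): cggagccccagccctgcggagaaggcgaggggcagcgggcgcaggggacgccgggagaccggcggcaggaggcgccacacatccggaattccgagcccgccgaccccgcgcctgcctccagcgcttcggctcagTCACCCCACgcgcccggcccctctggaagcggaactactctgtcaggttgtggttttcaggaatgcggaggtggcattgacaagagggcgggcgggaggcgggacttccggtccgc
Mvk (chr5:114444019-114444268, plus strand): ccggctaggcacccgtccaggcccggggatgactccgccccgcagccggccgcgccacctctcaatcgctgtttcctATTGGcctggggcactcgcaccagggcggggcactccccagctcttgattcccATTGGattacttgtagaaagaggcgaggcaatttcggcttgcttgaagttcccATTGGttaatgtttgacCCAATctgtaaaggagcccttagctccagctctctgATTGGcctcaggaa
Mvd (chr8:122443423-122443672, minus strand): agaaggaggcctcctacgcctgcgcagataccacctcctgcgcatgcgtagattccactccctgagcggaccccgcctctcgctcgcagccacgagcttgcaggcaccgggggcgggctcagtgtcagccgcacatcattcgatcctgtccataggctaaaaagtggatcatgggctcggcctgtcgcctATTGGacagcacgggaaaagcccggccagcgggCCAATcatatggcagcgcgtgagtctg
The shown stretch of Pcyt1a holds 1 match to the sterol element with an open base, that of Insig1 holds 1 CCAAT and 1 E-box, and those of Mvk, Mvd and Ebp hold 5, 2 and 2 matches to CCAAT. Over windows of 300 bases (250 before and 50 after each start), 28 of the 35 measured genes had at least 1 window in the table. CCAAT lay in a window of 21 of the 28 (75.0%), against 41.058% of all 27025 genes in the table. The E-box was found for 5 of 28 (17.857%, against 8.093% of all genes), and the sterol element with an open base for 1 of 28, which is Pcyt1a (3.571%, against 1.436% of all genes). The full 10-letter sterol element matched none of the 28, against 0.1% of all genes. A match describes letters in this window and is not evidence of binding.

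Most sterol and fatty acid synthesis genes were lower in control pre-plasmablasts than in activated B cells. Of 34 listed genes that passed the filter on low values, 20 were called lower and 4 higher in control pre-plasmablasts than in activated B cells, while 28.0% and 20.2% of all 10473 tested genes were called lower and higher (48.2% in all). The median log2 difference was -0.42 over the 34 genes and -0.12 over all tested genes, and the largest and smallest were 0.96 for Insig1 and -1.50 for Mvk. The 4 genes called higher were Insig1, Ebp, Elovl6 and Pcyt1a, which stand at different points of the pathway. Me1, the malic enzyme that makes NADPH, did not pass the filter and stayed under 1 RPKM in every library.

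**Figure D1:**
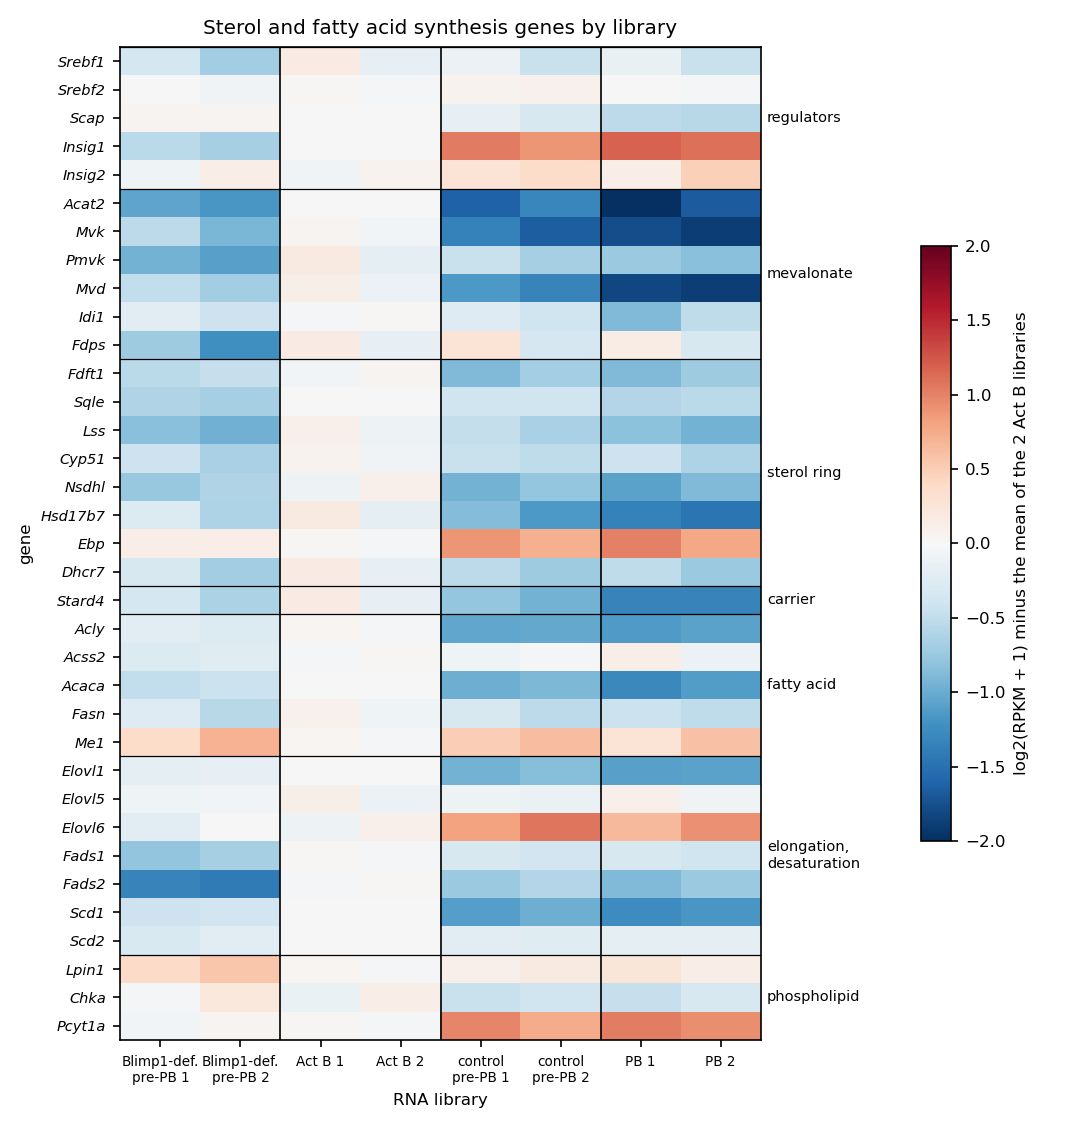
Each cell is the log2(RPKM + 1) of a gene in 1 library minus the mean of the 2 activated B cell (Act B) libraries, for 35 genes grouped by role (rows) in the 8 libraries of 4 groups (columns; Blimp1-def., Blimp1-deficient; pre-PB, pre-plasmablast; PB, plasmablast). Control pre-plasmablasts and plasmablasts are blue for most mevalonate and sterol ring genes and red for Insig1, Ebp, Elovl6 and Pcyt1a, whereas deficient pre-plasmablasts are near 0 for Ebp, Elovl6 and Pcyt1a and blue for Insig1.

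Among the 5 regulators, 1 was called in the step to pre-plasmablasts. Insig1, which holds the SREBP escort back when sterols are plentiful and is itself an SREBP target, stood at 55.1 and 55.2 RPKM in activated B cells, 114 and 102 RPKM in control pre-plasmablasts and 126 and 119.6 RPKM in plasmablasts. Its log2 difference was 0.96 ± 0.09 for pre-plasmablasts over activated B cells (SE, adjusted p = 0.000308) and 1.14 ± 0.09 for plasmablasts over activated B cells (adjusted p = 0.00011). Every library of the later stages was above both of activated B cells. Insig2, its relative, stood at 7.08 and 7.82 RPKM in activated B cells, 9.21 and 9.93 RPKM in pre-plasmablasts and 8.24 and 10.8 RPKM in plasmablasts. The groups of activated B cells and pre-plasmablasts did not overlap, yet the difference of 0.32 ± 0.15 was not called (adjusted p = 0.122).

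Srebf2, the factor tied most closely to sterol enzymes, was among the higher RPKM values of the list and nearly level, at 261 and 256 RPKM in activated B cells, 273 and 273 RPKM in control pre-plasmablasts and 258 and 250.8 RPKM in plasmablasts. The 95% interval of its difference between pre-plasmablasts and activated B cells was -0.11 to 0.27 on the log2 scale. Srebf1, tied more to fatty acid enzymes, stood at 71.1 and 56.1 RPKM in activated B cells, 57.9 and 45.9 RPKM in pre-plasmablasts and 57.0 and 46.3 RPKM in plasmablasts. Its libraries overlapped between all 3 stages, and the spread within each was wide (95% interval of the difference between pre-plasmablasts and activated B cells -0.76 to 0.18). Taken library by library, the first and the second differed by -0.29 and -0.28 in pre-plasmablasts and by -0.31 and -0.27 in plasmablasts, both against activated B cells. No label pairs these libraries. Scap, the escort of both factors, stood at 43.2 and 43.0 RPKM in activated B cells, 38.4 and 34.2 RPKM in pre-plasmablasts and 29.8 and 29.1 RPKM in plasmablasts. It was called lower in plasmablasts than in activated B cells (-0.53 ± 0.09, adjusted p = 0.00213) and missed the threshold in pre-plasmablasts (-0.24 ± 0.09, adjusted p = 0.056).

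In the mevalonate steps, 4 of 6 genes were called lower in pre-plasmablasts than in activated B cells and none higher. Mvk, mevalonate kinase, stood at 55.1 and 51.3 RPKM in activated B cells, 20.1 and 16.3 RPKM in pre-plasmablasts and 14.9 and 13.7 RPKM in plasmablasts. Its log2 difference was -1.50 ± 0.16 in pre-plasmablasts (adjusted p = 0.000412) and -1.82 ± 0.16 in plasmablasts (adjusted p = 0.000136), both against activated B cells. The stages were apart in every library, with activated B cells highest. Mvd, the decarboxylase that ends the mevalonate steps, stood at 165 and 139.9 RPKM in activated B cells, 67.6 and 59.5 RPKM in pre-plasmablasts and 42.2 and 40.4 RPKM in plasmablasts (-1.25 ± 0.13, adjusted p = 0.000343, and -1.85 ± 0.13, adjusted p = 4.76e-05, against activated B cells). It too fell in the same order in all libraries.

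The other mevalonate genes differed among themselves. Acat2, the thiolase that makes acetoacetyl-CoA, was lower by a similar amount (-1.46 ± 0.17 in pre-plasmablasts, adjusted p = 0.000588). Pmvk, phosphomevalonate kinase, was lower by less (-0.56 ± 0.14, adjusted p = 0.0182). Fdps, which makes farnesyl diphosphate, stood at 52.8 and 34.3 RPKM in pre-plasmablasts and 49.2 and 38.6 RPKM in activated B cells, so that the groups overlapped and their spread exceeded the difference. Idi1, the isopentenyl diphosphate isomerase, was a low gene with 2.97 and 3.08 RPKM in activated B cells, 2.37 and 2.05 RPKM in pre-plasmablasts and 1.19 and 1.84 RPKM in plasmablasts and was called lower in plasmablasts against activated B cells only (-0.69 ± 0.15, adjusted p = 0.00847).

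All 8 genes of the squalene and sterol ring steps were called in pre-plasmablasts against activated B cells, 7 of them lower. Hsd17b7, a ketosterol reductase, had the largest decrease (-1.01 ± 0.18, adjusted p = 0.00449), followed by the sterol dehydrogenase Nsdhl (-0.86 ± 0.13) and squalene synthase, Fdft1 (-0.78 ± 0.11). Dhcr7, Lss, Cyp51 and the epoxidase Sqle ranged from -0.62 ± 0.18 to -0.39 ± 0.08. The exception was Ebp, a sterol isomerase, at 42.1 and 40.4 RPKM in activated B cells, 76.5 and 68.4 RPKM in pre-plasmablasts and 83.6 and 71.3 RPKM in plasmablasts (0.80 ± 0.11, adjusted p = 0.00115, and 0.89 ± 0.11, adjusted p = 0.000551, against activated B cells). Its libraries at both later stages were all above those of activated B cells. Stard4, which carries sterols between membranes, fell to 20.1 and 17.7 RPKM in pre-plasmablasts, against 39.4 and 31.3 RPKM in activated B cells (-0.86 ± 0.15, adjusted p = 0.00362), and stood at 13.2 and 13.3 RPKM in plasmablasts.

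Of the 4 tested genes of fatty acid synthesis, 3 were called lower in pre-plasmablasts than in activated B cells. Acly, which makes cytosolic acetyl-CoA from citrate, stood at 125 and 117.4 RPKM in activated B cells, 58.2 and 59.1 RPKM in pre-plasmablasts and 54.4 and 57.3 RPKM in plasmablasts. Its log2 difference from activated B cells was -1.03 ± 0.08 in pre-plasmablasts (adjusted p = 0.000115) and -1.10 ± 0.08 in plasmablasts (adjusted p = 6.36e-05). Pre-plasmablasts and plasmablasts were close to each other and well below activated B cells. Acaca, the carboxylase that makes malonyl-CoA, was low throughout, at 5.45 and 5.55 RPKM in activated B cells, 2.32 and 2.49 RPKM in pre-plasmablasts and 1.65 and 1.999 RPKM in plasmablasts (-0.93 ± 0.11, adjusted p = 0.000571, and -1.20 ± 0.11, adjusted p = 0.000144). Fasn, the fatty acid synthase, fell by less (-0.42 ± 0.13, adjusted p = 0.0364), and Acss2, which makes acetyl-CoA from acetate, was not called (95% interval -0.34 to 0.22).

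The 7 genes of elongation and desaturation moved apart, with 4 called lower and 1 higher in pre-plasmablasts than in activated B cells. Elovl1, an elongase of very long chains, stood at 74.7 and 75.5 RPKM in activated B cells, 38.4 and 41.3 RPKM in pre-plasmablasts and 34.7 and 35.1 RPKM in plasmablasts (-0.90 ± 0.08, adjusted p = 0.000186, and -1.08 ± 0.08, adjusted p = 6.32e-05, against activated B cells). Elovl6, which elongates palmitate, went the other way, with 1.95 and 2.40 RPKM in activated B cells, 4.54 and 5.68 RPKM in pre-plasmablasts and 3.94 and 4.94 RPKM in plasmablasts (0.94 ± 0.16, adjusted p = 0.00331, and 0.77 ± 0.16, adjusted p = 0.00631). Every later library of Elovl6 was above both activated B cell libraries, although the gene stayed under 6 RPKM. Fads2 and Fads1, the desaturases of polyunsaturated fatty acids, were lower too (-0.66 ± 0.10 for Fads2 and -0.35 ± 0.09 for Fads1), and Elovl5 was not called (95% interval -0.38 to 0.14).

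Scd1 and Scd2 are paralogs that both place the first double bond into saturated fatty acids. Scd1 had 485 and 484 RPKM in activated B cells, 224 and 246 RPKM in pre-plasmablasts and 202 and 217 RPKM in plasmablasts, with log2 differences from activated B cells of -1.04 ± 0.09 (adjusted p = 0.000181) and -1.21 ± 0.09 (adjusted p = 7.07e-05). Scd2 had 303 and 306 RPKM in activated B cells, 260.4 and 258 RPKM in pre-plasmablasts and 268 and 270.0 RPKM in plasmablasts, and its difference of -0.23 ± 0.08 in pre-plasmablasts missed the threshold (adjusted p = 0.0508). The ratio of Scd1 to Scd2 was 1.60 and 1.58 in activated B cells, 0.861 and 0.955 in control pre-plasmablasts and 0.753 and 0.802 in plasmablasts, so the paralog with the higher level changed between the stages in both libraries. How reads shared by such close copies were counted is not given in the sources used here.

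In phospholipid synthesis 1 gene was called higher, 1 lower and 1 was not called in pre-plasmablasts against activated B cells. Pcyt1a, the rate-limiting enzyme of phosphatidylcholine synthesis, stood at 9.83 and 9.55 RPKM in activated B cells, 19.9 and 16.9 RPKM in pre-plasmablasts and 20.7 and 19.3 RPKM in plasmablasts (0.86 ± 0.11, adjusted p = 0.00098, and 0.97 ± 0.11, adjusted p = 0.000434, against activated B cells). Its groups did not overlap with activated B cells at either later stage. Chka, choline kinase, which acts a step before it, had the largest adjusted p of the called genes (-0.42 ± 0.14, adjusted p = 0.0438). Lpin1, a phosphatidate phosphatase, was not called (95% interval -0.12 to 0.41).

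For plasmablasts against activated B cells, 22 of 34 listed genes were called lower and 4 higher, where 33.9% and 21.3% of all tested genes were called lower and higher (55.1% in all). The median log2 difference was -0.55 over the listed genes and -0.18 over all tested genes. The 4 genes called higher were again Insig1, Ebp, Elovl6 and Pcyt1a, and both contrasts share the activated B cell libraries. Median-of-ratios scaling of the RPKM values moved the median of all genes to -0.02 for pre-plasmablasts and -0.01 for plasmablasts, and then 14 and 17 listed genes were called lower and 4 and 6 higher. Of all 10470 genes tested in that way, 2293 and 2626 were called lower and 2430 and 2772 higher (45.1% and 51.6% in all). In plasmablasts against activated B cells, 38.6% of all calls were in the higher direction, and 51.4% with that scaling. Of 24 listed genes called in pre-plasmablasts, 17 kept their call under every alternative. Those lost in at least 1 were Chka, Cyp51, Dhcr7, Fads1, Fasn, Lss and Pmvk. Chka lost it without the second activated B cell library (adjusted p = 0.222) and the other 6 without the first (adjusted p 0.0523 to 0.168). In plasmablasts 21 of 26 calls held under every alternative, and Chka, Cyp51, Dhcr7, Fads1 and Fasn were lost in at least 1.

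Between plasmablasts and control pre-plasmablasts no listed gene was called, while 2.34% of all tested genes were, 0.716% higher and 1.62% lower. This count depended on the model. Library numbers fall into 2 series, and no label says what they are. With the series as a block, 7 listed genes were called lower and 0 higher, where 20.3% of all tested genes were called. At an unadjusted p under 0.05 in limma, 6 of 34 listed genes differed, all lower in plasmablasts (Mvd, Scap, Stard4, Lss, Acaca and Acat2), where 10.5% of all tested genes were lower and 5.80% higher at that threshold. Mvd came closest, at 42.2 and 40.4 RPKM in plasmablasts and 67.6 and 59.5 RPKM in control pre-plasmablasts (-0.61 ± 0.13, adjusted p = 0.0709). The median log2 difference was -0.08 over the listed genes and -0.04 over all tested genes. The 2 groups did not overlap for 15 genes lower and 3 higher in plasmablasts, against 26.4% and 15.8% of all tested genes lower and higher.

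**Figure D2:**
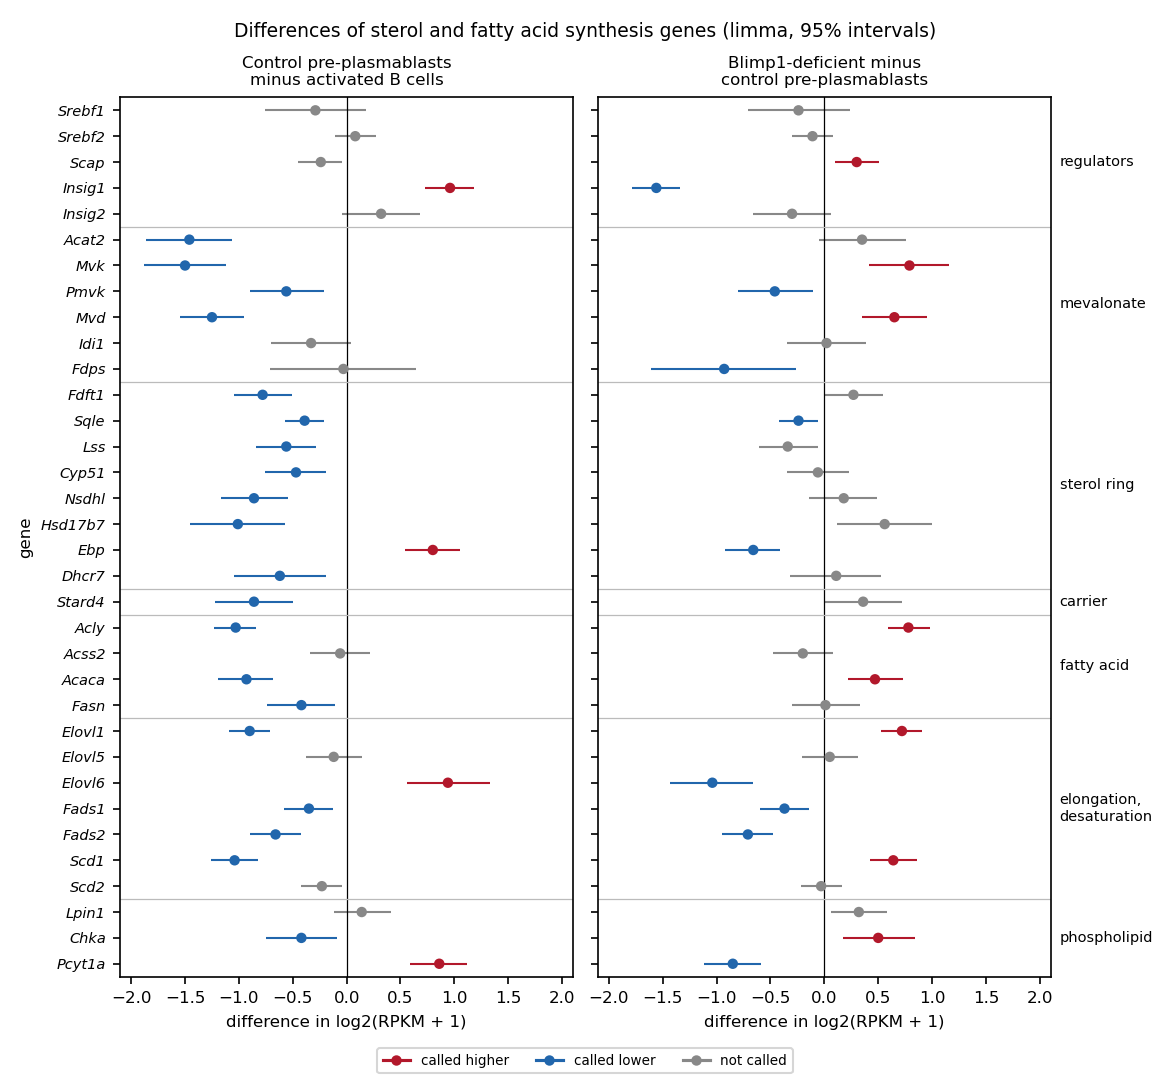
Log2 differences of 34 tested genes (rows, grouped by role) with 95% intervals from limma, for control pre-plasmablasts minus activated B cells (left) and Blimp1-deficient minus control pre-plasmablasts (right), coloured by call. On the left most points lie below 0 and Insig1, Ebp, Elovl6 and Pcyt1a above it, and on the right these 4 genes lie below 0 while Mvk, Mvd, Acly, Elovl1 and Scd1 lie above it.

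The comparison of Blimp1-deficient with control pre-plasmablasts asks which of these genes differ between the genotypes in cells that have switched on the Blimp1 locus. The added CD22 gate of deficient cells is part of the same difference. Of the 34 genes, 8 were called higher and 9 lower in deficient cells, where 24.4% and 16.1% of all tested genes were called higher and lower (40.4% in all). The median log2 difference was 0.02 over the listed genes and 0.12 over all tested genes. The genes called higher were Mvk, Mvd, Acly, Acaca, Elovl1, Scd1, Chka and Scap. Those called lower were Insig1, Pcyt1a, Fads2, Elovl6, Ebp, Fads1, Fdps, Pmvk and Sqle.

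Insig1 had the smallest adjusted p of the list. It stood at 37.5 and 34.2 RPKM in deficient pre-plasmablasts, against 114 and 102 RPKM in control pre-plasmablasts (log2 difference -1.56 ± 0.09, adjusted p = 7.91e-05). Deficient cells were also below activated B cells, which had 55.1 and 55.2 RPKM (-0.61 ± 0.09, adjusted p = 0.00707). Both deficient libraries were thus the lowest of the 8. Scap stood at 44.9 and 45.0 RPKM in deficient and 38.4 and 34.2 RPKM in control pre-plasmablasts (0.30 ± 0.09, adjusted p = 0.0315). Its call was lost with median-of-ratios scaling (0.18, adjusted p = 0.176).

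The other regulators were not called. Srebf1 stood at 49.5 and 38.5 RPKM in deficient and 57.9 and 45.9 RPKM in control pre-plasmablasts, with overlapping libraries (95% interval -0.71 to 0.24). Its first libraries differed by -0.22 and its second by -0.25, though no label pairs them. Srebf2 stood at 259 and 245 RPKM in deficient and 273 and 273 RPKM in control pre-plasmablasts (95% interval -0.30 to 0.08), and Insig2 at 6.96 and 8.30 RPKM in deficient and 9.21 and 9.93 RPKM in control pre-plasmablasts (95% interval -0.66 to 0.06). For both genes the deficient libraries were lower without overlap, by amounts that missed the threshold.

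Ebp, Elovl6 and Pcyt1a stood in deficient pre-plasmablasts at about the level of activated B cells. Ebp had 45.3 and 45.4 RPKM in deficient and 76.5 and 68.4 RPKM in control pre-plasmablasts (-0.66 ± 0.11, adjusted p = 0.00342), with a 95% interval of -0.12 to 0.39 for deficient cells against activated B cells. Pcyt1a had 9.34 and 10.1 RPKM in deficient and 19.9 and 16.9 RPKM in control pre-plasmablasts (-0.85 ± 0.11, adjusted p = 0.00139), and the interval against activated B cells was -0.26 to 0.27. Elovl6 had 1.74 and 2.17 RPKM in deficient and 4.54 and 5.68 RPKM in control pre-plasmablasts (-1.04 ± 0.16, adjusted p = 0.00281), and the interval against activated B cells was -0.49 to 0.28. In all 3 genes the deficient and control libraries were fully apart.

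**Figure D3:**
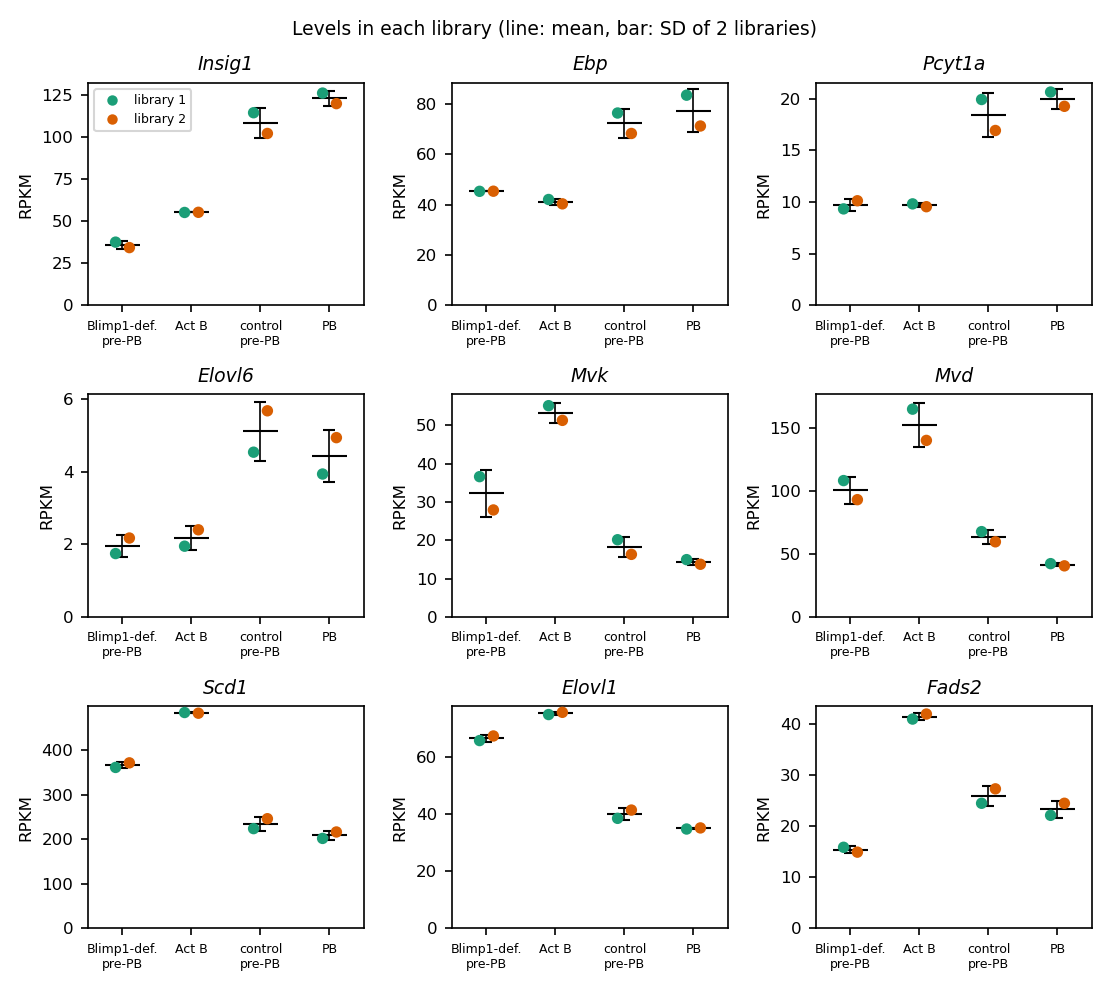
RPKM of 9 genes in each library of Blimp1-deficient pre-plasmablasts, activated B cells, control pre-plasmablasts and plasmablasts (points; line, mean; bar, SD of 2 libraries). For Ebp, Pcyt1a and Elovl6 deficient cells lie beside activated B cells, for Mvk, Mvd, Scd1 and Elovl1 they lie between activated B cells and control pre-plasmablasts, and for Insig1 and Fads2 they are the lowest group.

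The 6 genes with the smallest adjusted p among those higher in deficient cells came from several steps. Acly had 104 and 100.03 RPKM in deficient and 58.2 and 59.1 RPKM in control pre-plasmablasts (0.78 ± 0.08, adjusted p = 0.000531), and Elovl1 had 65.6 and 67.2 RPKM in deficient and 38.4 and 41.3 RPKM in control pre-plasmablasts (0.72 ± 0.08, adjusted p = 0.000687). Scd1 had 362 and 372 RPKM in deficient and 224 and 246 RPKM in control pre-plasmablasts (0.64 ± 0.09, adjusted p = 0.00198). None of these groups overlapped.
Mvd had 108 and 92.9 RPKM in deficient and 67.6 and 59.5 RPKM in control pre-plasmablasts (0.65 ± 0.13, adjusted p = 0.00702). Mvk had 36.6 and 27.9 RPKM in deficient and 20.1 and 16.3 RPKM in control pre-plasmablasts (0.79 ± 0.16, adjusted p = 0.00846), and Acaca had 3.62 and 3.81 RPKM in deficient and 2.32 and 2.49 RPKM in control pre-plasmablasts (0.47 ± 0.11, adjusted p = 0.013). The libraries were apart here as well, and all 6 genes were still below activated B cells in both deficient libraries. Against activated B cells the log2 difference of deficient cells was -0.72 ± 0.16 for Mvk, -0.59 ± 0.13 for Mvd and -0.40 ± 0.09 for Scd1, all called, whereas Acly (-0.25 ± 0.08, adjusted p = 0.082) and Elovl1 (-0.17 ± 0.08, adjusted p = 0.189) were not.

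Scd2 did not follow its paralog. It had 246 and 261 RPKM in deficient and 260.4 and 258 RPKM in control pre-plasmablasts, with overlapping libraries (95% interval -0.22 to 0.16). The ratio of Scd1 to Scd2 was 1.47 and 1.42 in deficient pre-plasmablasts, against 0.861 and 0.955 in control pre-plasmablasts, and so lay nearer to activated B cells in both libraries.

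Fads2 and Fads1 were lowest in deficient cells. Fads2, which acts first in the synthesis of polyunsaturated fatty acids, stood at 15.9 and 14.9 RPKM in deficient and 24.5 and 27.3 RPKM in control pre-plasmablasts and at 41.0 and 41.9 RPKM in activated B cells. Its log2 difference was -0.71 ± 0.10 against control pre-plasmablasts (adjusted p = 0.00182) and -1.37 ± 0.10 against activated B cells (adjusted p = 0.00056). Fads1 stood at 11.3 and 12.5 RPKM in deficient and 16.0 and 15.2 RPKM in control pre-plasmablasts and at 20.6 and 19.9 RPKM in activated B cells, with log2 differences of -0.37 ± 0.09 (adjusted p = 0.0211) and -0.73 ± 0.09 (adjusted p = 0.0038). For both desaturases the deficient libraries lay below every other library of the 8.

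Set against activated B cells, deficient pre-plasmablasts had 14 of 34 listed genes called lower and 1 higher (Lpin1), where 7.60% and 10.4% of all tested genes were called lower and higher (18.0% in all). The median log2 difference was -0.46 over the listed genes and 0.00 over all tested genes. Beside Fads2 and Fads1, the smallest adjusted p belonged to Sqle, Lss, Pmvk and Acat2. Sqle, squalene epoxidase, had 55.9 and 53.5 RPKM in deficient pre-plasmablasts and 84.4 and 85.9 RPKM in activated B cells (-0.63 ± 0.08, adjusted p = 0.00275). Lss, which closes the sterol rings, had 20.6 and 18.7 RPKM in deficient pre-plasmablasts and 40.2 and 34.8 RPKM in activated B cells (-0.90 ± 0.12, adjusted p = 0.00373). The groups did not overlap for either gene.
Pmvk had 24.3 and 21.8 RPKM in deficient pre-plasmablasts and 53.7 and 42.0 RPKM in activated B cells (-1.01 ± 0.14, adjusted p = 0.00521), and Acat2 had 11.2 and 10.3 RPKM in deficient pre-plasmablasts and 24.4 and 24.3 RPKM in activated B cells (-1.11 ± 0.17, adjusted p = 0.00651). Lpin1 had 5.45 and 6.24 RPKM in deficient pre-plasmablasts and 4.06 and 3.84 RPKM in activated B cells (0.47 ± 0.11, adjusted p = 0.031). Again no libraries overlapped. By role, 4 of 6 mevalonate genes, 5 of 8 sterol ring genes, 1 of 4 fatty acid synthesis genes and 3 of 7 genes of elongation and desaturation were called lower in deficient cells than in activated B cells.

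Against control pre-plasmablasts, 10 of the 17 calls held under every alternative, and the others (Acaca, Chka, Fads1, Fdps, Pmvk, Scap and Sqle) were lost in at least 1 (largest adjusted p 0.0682 for Acaca to 0.194 for Pmvk). The count higher was 5 without the second deficient library, and the count lower was 5 without the first control pre-plasmablast library. With median-of-ratios scaling the median of all genes was 0.00. Then 6 listed genes were called higher and 10 lower, where 37.3% of all genes were called. Of all calls 47.5% were in the higher direction, against 60.3% without that scaling. Against activated B cells, 6 of 15 calls held under every alternative. Here the count lower was 7 and 8 without the first and the second activated B cell library and 6 without the second deficient library, and Lpin1 lost its call whichever library was left out.

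In pre-plasmablasts with GSK343, 2 of 34 listed genes were called higher and 5 lower against DMSO, where 12.7% and 5.86% of all 9479 tested genes were called higher and lower (18.6% in all). The median log2 difference was -0.13 over the listed genes and 0.02 over all tested genes. The genes called higher were Acss2 and Pcyt1a, and those called lower were Fads1, Scd2, Fdps, Cyp51 and Fads2. Of the 6 plasma cell markers, 2 were called higher with GSK343, 1 lower and 3 were not called. Sdc1, which encodes CD138, stood at 7.27 and 8.75 RPKM with GSK343 and 3.01 and 2.57 RPKM with DMSO and Tnfrsf17 was higher too (0.89 ± 0.14), whereas Irf4 stood at 135 and 118.97 RPKM with GSK343 and 188 and 173 RPKM with DMSO, and the sum of all 6 was 3842 and 4157 RPKM with GSK343 and 4718 and 4460.4 RPKM with DMSO. Cd68 (-0.58 ± 0.11) and Flt3 (-0.39 ± 0.10) were called lower with GSK343, and Lck was at 9.47 and 8.35 RPKM with GSK343 and 2.46 and 2.20 RPKM with DMSO. Summed over 6 T cell markers the level was 9.98 and 8.68 RPKM with GSK343 and 2.46 and 2.38 RPKM with DMSO. Cd3e was at 0 in all 4 libraries, and Cd4 was at 0.0491 and 0.119 RPKM with GSK343 and 0 and 0.0292 RPKM with DMSO. Their part in the differences was not tested.

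Acss2, which makes acetyl-CoA from acetate, stood at 12.4 and 10.9 RPKM with GSK343 and 8.003 and 6.67 RPKM with DMSO (0.61 ± 0.13, adjusted p = 0.00674). Pcyt1a stood at 22.5 and 22.4 RPKM with GSK343 and 17.7 and 14.7 RPKM with DMSO (0.45 ± 0.11, adjusted p = 0.0138). In both genes all GSK343 libraries were above all DMSO libraries. Fads1 stood at 16.9 and 16.5 RPKM with GSK343 and 23.8 and 25.7 RPKM with DMSO (-0.54 ± 0.09, adjusted p = 0.00264), and Scd2 at 175 and 149.8 RPKM with GSK343 and 208 and 205 RPKM with DMSO (-0.35 ± 0.09, adjusted p = 0.0177). Scd1, its paralog, was at 151 and 135 RPKM with GSK343 and 149 and 154 RPKM with DMSO, with overlapping libraries (95% interval -0.26 to 0.10). The ratio of Scd1 to Scd2 was 0.867 and 0.902 with GSK343, against 0.716 and 0.750 with DMSO.

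**Figure D4:**
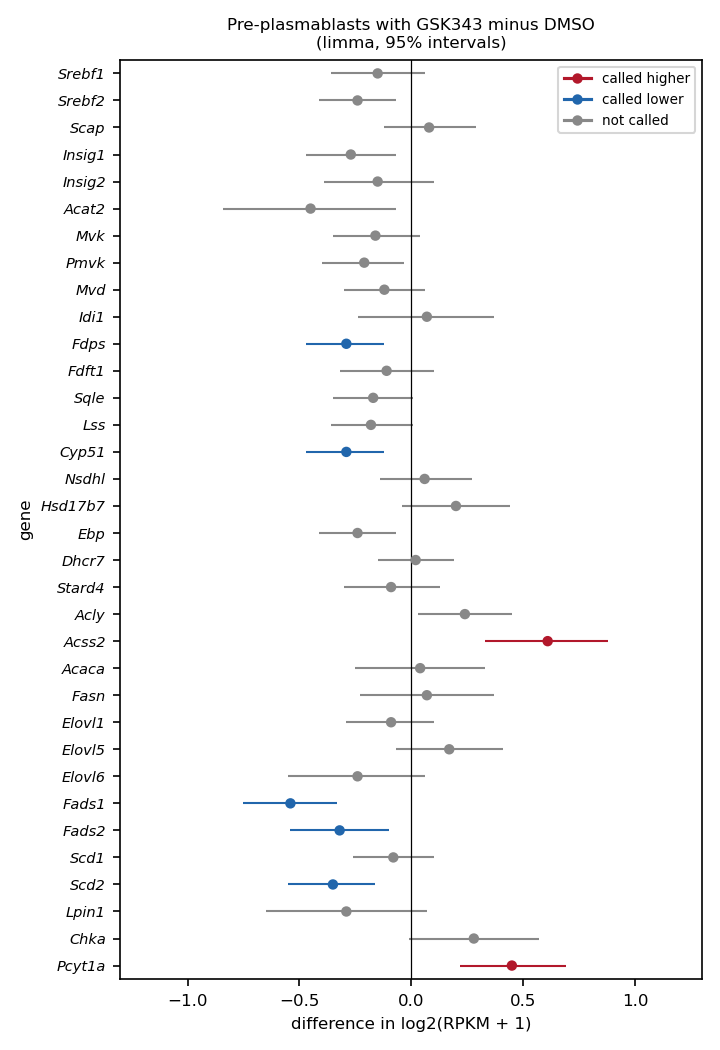
Log2 differences of 34 tested genes (rows) between pre-plasmablasts with GSK343 and with DMSO, with 95% intervals from limma, coloured by call. Acss2 and Pcyt1a lie above 0, Fads1, Scd2, Fdps, Cyp51 and Fads2 lie below it, and the other 27 genes were not called.

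The remaining called genes had smaller differences. Fdps stood at 135 and 133 RPKM with GSK343 and 158 and 171 RPKM with DMSO (-0.29 ± 0.08, adjusted p = 0.0243). Cyp51, the lanosterol demethylase, stood at 73.8 and 70.1 RPKM with GSK343 and 86.3 and 90.6 RPKM with DMSO (-0.29 ± 0.08, adjusted p = 0.025), and Fads2 at 29.3 and 28.5 RPKM with GSK343 and 39.6 and 33.5 RPKM with DMSO (-0.32 ± 0.10, adjusted p = 0.0443). The libraries were apart in all 3 genes.

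Among the regulators none was called. Insig1 stood at 175 and 199 RPKM with GSK343 and 239 and 212 RPKM with DMSO (-0.27 ± 0.09, adjusted p = 0.0659), and Srebf2 at 133 and 124 RPKM with GSK343 and 153 and 150.1 RPKM with DMSO (-0.24 ± 0.08, adjusted p = 0.0543). Both were lower in each GSK343 library than in either DMSO library and missed the threshold. Srebf1 stood at 36.4 and 31.3 RPKM with GSK343 and 37.9 and 37.3 RPKM with DMSO, Insig2 at 10.9 and 10.3 RPKM with GSK343 and 12.5 and 11.2 RPKM with DMSO, and Scap at 39.9 and 34.9 RPKM with GSK343 and 36.3 and 34.0 RPKM with DMSO. Of these 3, only Scap overlapped between the groups.
None of the 7 calls held under every alternative. With no filter on low values, limma called 0 of 20650 genes. At an unadjusted p under 0.05 there were then 10 of 35 listed genes and 17.6% of all genes. With median-of-ratios scaling 10 listed genes were called lower and 2 higher, where 20.1% of all genes were called, and 55.1% of all calls were in the higher direction, against 68.5% without it. Without the first and the second GSK343 library the count lower was 2 and 1 and the count higher 0 and 1, and the count higher was 4 and 1 without the first and the second DMSO library.

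Plasma cells taken directly from mice are in tables without the GC normalization of the 4 main groups, so their levels were set beside the others without a test, by RPKM and by the percentile of each gene among 11165 genes named in every table. The median percentile of the 35 listed genes was 52.93 in plasma cells, against 70.61 in plasmablasts and 80.51 in DMSO pre-plasmablasts, whose tables lack that step too. It was 72.69 in control pre-plasmablasts. In plasma cells 23 of the 35 genes had a lower percentile than in both plasmablasts and DMSO pre-plasmablasts, and 8 a higher one. The share of all 11165 genes that did so was not computed, so these counts and those by role describe the listed genes only. Lower than in both were 6 of 6 mevalonate genes, 6 of 8 sterol ring genes, 7 of 7 genes of elongation and desaturation and Stard4, but 1 of 5 genes of fatty acid synthesis and 0 of 3 of phospholipid synthesis.

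Sqle, at percentiles of 49.13 and 47.2 in plasma cells, stood at 87.38 and 87.97 in plasmablasts and 91.36 and 90.91 in DMSO pre-plasmablasts. Its RPKM was 9.64 and 8.96 in plasma cells and 92.1 and 89.9 in DMSO pre-plasmablasts. Cyp51 had 8.10 and 9.58 RPKM in plasma cells and 86.3 and 90.6 RPKM in DMSO pre-plasmablasts, and Mvd had 9.76 and 9.43 RPKM in plasma cells and 93.3 and 102 RPKM in DMSO pre-plasmablasts. These sterol enzymes were thus far lower in both plasma cell libraries than in DMSO pre-plasmablasts. Control pre-plasmablasts, in tables with GC normalization, stood below the DMSO libraries. They had 64.7 and 64.6 RPKM for Sqle, 63.6 and 60.6 RPKM for Cyp51 and 67.6 and 59.5 RPKM for Mvd. Insig1, at 28.4 and 31.8 RPKM in plasma cells and 239 and 212 RPKM in DMSO pre-plasmablasts, and Srebf2, at 98.6 and 97.0 RPKM in plasma cells and 153 and 150.1 RPKM in DMSO pre-plasmablasts, were lower too. In control pre-plasmablasts Insig1 was below the DMSO libraries (114 and 102 RPKM) and Srebf2 above them (273 and 273 RPKM).

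Scap went the other way, with 54.8 and 58.2 RPKM in plasma cells and 36.3 and 34.0 RPKM in DMSO pre-plasmablasts, as did Srebf1, with 46.9 and 50.4 RPKM in plasma cells and 37.9 and 37.3 RPKM in DMSO pre-plasmablasts. Beside plasmablasts Srebf1 was level, with a mean percentile of 86.31 in plasma cells and 86.07 in plasmablasts. Insig2 had 11.3 and 11.9 RPKM in plasma cells and 12.5 and 11.2 RPKM in DMSO pre-plasmablasts, so that its libraries overlapped. Acly, at 53.0 and 54.0 RPKM in plasma cells and 54.2 and 52.4 RPKM in DMSO pre-plasmablasts, overlapped as well. Chka, choline kinase, had 7.83 and 7.79 RPKM in plasma cells and 1.67 and 1.87 RPKM in DMSO pre-plasmablasts, and Acss2 had 10.8 and 11.9 RPKM in plasma cells and 8.003 and 6.67 RPKM in DMSO pre-plasmablasts. Both were higher in each plasma cell library. Pcyt1a had 21.7 and 18.5 RPKM in plasma cells and 17.7 and 14.7 RPKM in DMSO pre-plasmablasts, again with both plasma cell libraries above. Its mean percentile was nearly level, at 67.81 in plasma cells, 66.87 in plasmablasts and 66.06 in DMSO pre-plasmablasts.

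**Figure D5:**
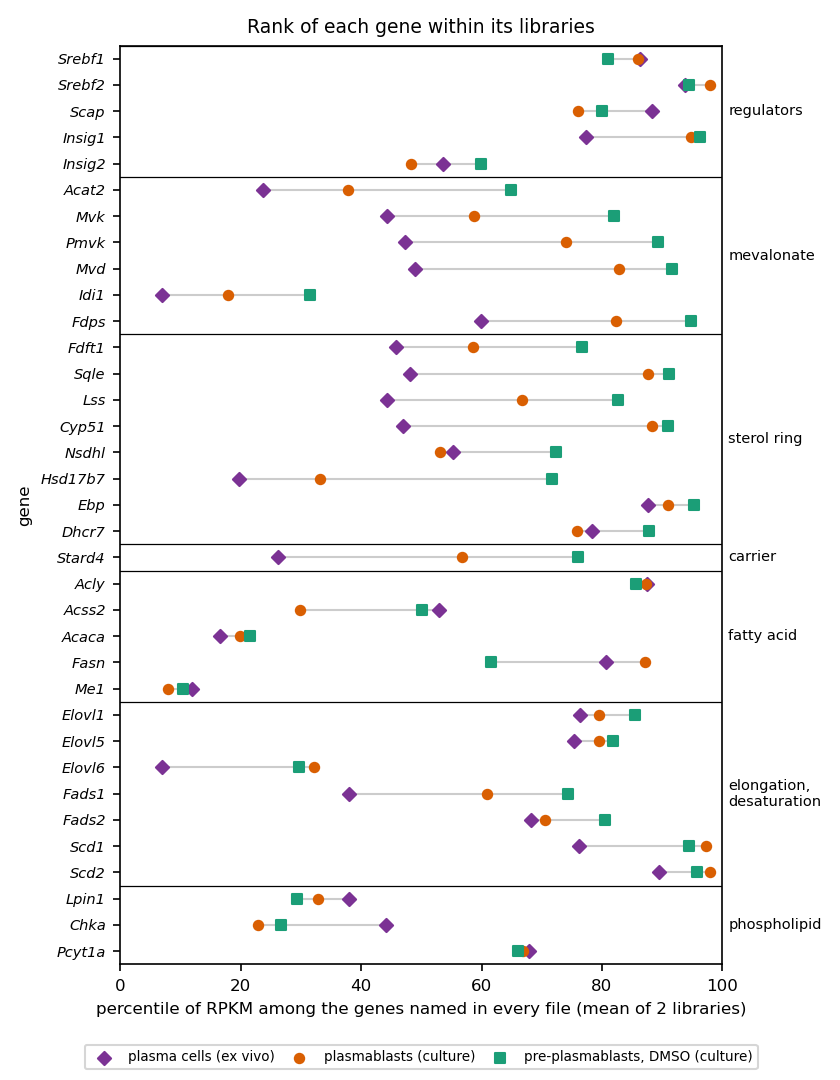
Percentile of RPKM of 35 genes (rows, grouped by role) among the genes named in every table, as the mean of 2 libraries, in plasma cells, plasmablasts and DMSO pre-plasmablasts. Plasma cells are the leftmost point for all 6 mevalonate genes and all 7 genes of elongation and desaturation, and for none of the 3 phospholipid genes.

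The stearoyl-CoA desaturases were far lower in plasma cells. Scd1 had 28.4 and 28.5 RPKM in plasma cells and 149 and 154 RPKM in DMSO pre-plasmablasts, and Scd2 had 57.9 and 65.0 RPKM in plasma cells and 208 and 205 RPKM in DMSO pre-plasmablasts. The ratio of Scd1 to Scd2 was 0.490 and 0.438 in plasma cells, the lowest of the 14 libraries. Markers of other cells were also seen in plasma cells: the sum over 6 myeloid markers was 135.6 and 91.0 RPKM in plasma cells and 13.8 and 12.8 RPKM in DMSO pre-plasmablasts, and that over 6 T cell markers 15.8 and 10.5 RPKM in plasma cells and 2.46 and 2.38 RPKM in DMSO pre-plasmablasts. The T cell sum was mostly Cd4 (12.8 and 8.87 RPKM in plasma cells, 0 and 0.0292 RPKM in DMSO pre-plasmablasts). Lck went the other way (0.984 and 0.665 RPKM in plasma cells, 2.46 and 2.20 RPKM in DMSO pre-plasmablasts). The sum over 5 natural killer or dendritic markers was lower in plasma cells, at 2.48 and 2.22 RPKM, against 17.4 and 18.8 RPKM in DMSO pre-plasmablasts. Hbb-b1 stood at 48.8 and 27.2 RPKM in plasma cells and 3.40 and 5.58 RPKM in DMSO pre-plasmablasts. Ncr1 was at 0 in both groups, and Csf1r, S100a8, Cd3e, Cd8a and Klrb1c were at 0 in both DMSO libraries. In plasma cells Csf1r was at 0.437 and 1.53 RPKM and S100a8 at 14.0 and 6.29 RPKM. Cd3e was there at 0.197 and 0.123 RPKM, Cd8a at 0 and 0.0189 RPKM and Klrb1c at 0 and 0.0224 RPKM. Their part in these differences was not tested, and culture, source and gate also differ between plasma cells and the other groups and cannot be told apart.

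Other genes of lipid metabolism were taken from a list of 59 symbols, of which 48 were tested in the 4 main groups. In control pre-plasmablasts against activated B cells 11 were called higher and 11 lower (median log2 difference 0.01), a share near the 48.2% of all tested genes. Fads3, a relative of Fads1 and Fads2, was higher at 5.81 and 4.28 RPKM in pre-plasmablasts, against 0.389 and 0.482 RPKM in activated B cells (2.06 ± 0.16, adjusted p = 0.000128). Dhdds, which makes the dolichol backbone used for glycosylation, was higher by 1.14 ± 0.11, and Agpat4 and Tecr, enzymes of phosphatidate synthesis and of very long chain synthesis, by 1.11 ± 0.10 and 0.71 ± 0.10. The sterol reductase Tm7sf2 was lower (-1.41 ± 0.13), as was Soat1, which esterifies cholesterol (-0.86 ± 0.11).

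In deficient against control pre-plasmablasts 9 of the 48 were called higher and 8 lower (median -0.02), where 40.4% of all tested genes were called. Fads3 fell to 0.448 and 0.297 RPKM in deficient pre-plasmablasts, against 5.81 and 4.28 RPKM in control pre-plasmablasts (-2.13 ± 0.16, adjusted p = 0.000183). Dhdds (-1.22 ± 0.11), Tecr (-0.85 ± 0.10) and the sterol exporter Abcg1 (-0.93 ± 0.12) were also lower. Among those higher in deficient cells were Mylip, a ubiquitin ligase for lipoprotein receptors (1.28 ± 0.18), and Tm7sf2 (0.68 ± 0.13). With GSK343, 4 of 46 tested genes were called higher and 4 lower against DMSO, where 18.6% of all tested genes were called. Agpat2, an acyltransferase of phosphatidate synthesis, stood at 12.3 and 12.3 RPKM with GSK343 and 6.56 and 3.87 RPKM with DMSO (1.13 ± 0.18, adjusted p = 0.0013), and the sterol ring enzyme listed as Sc4mol was lower (-0.33 ± 0.07). Between plasmablasts and control pre-plasmablasts, Soat1 alone of the 48 was called (-0.64 ± 0.11, adjusted p = 0.0415), where 2.34% of all tested genes were.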

How the data were processed

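RNA was measured by sequencing in 14 mouse libraries, 2 per group. Per the labels' protocols, polyadenylated RNA was made into strand-specific libraries and read at 50 nucleotides. Per the submitters' processing notes, the tools and build were mm9, DESeq 1.8.3, HTSeq 0.5.3, TopHat 1.4.1 and SICER. Annotation and strand setting of counting: not given in the sources used here. The authors deposited RPKM values, per gene and library. File names mark 8 of these libraries as GC-normalized and carry no such mark for the inhibitor and plasma cell libraries, so tests stayed within a kind of table. RPKM values are not counts, and the reads behind the GC-normalized values are unknown (at most 4.23% of low genes shared the commonest ratio between libraries). Relative to the first DMSO library the depth was 0.848 for the second, and 1.008 and 0.832 for the GSK343 libraries.

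In the plasma cell files, 5 read-counter names were dropped so that names and values lined up (rank correlation with a DMSO library across genes 0.908 and 0.907, against 0.397 and 0.399 as deposited). Entries with a repeated name were left out. Values were analysed as log2(RPKM + 1), which understates changes of low genes, for genes that reached 1 RPKM in 2 or more libraries. limma 3.58.1 in R 4.3.3 (lmFit, eBayes with trend, two-sided) was fitted once over the 8 GC-normalized libraries and once over the 4 inhibitor libraries, and p was adjusted over all tested genes. Python 3.11.15 and pandas 2.3.3 were used for the rest. The script was tested on simulated data.

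Whether both libraries of a group stem from different mice or cultures is not in the labels, so the p-values reflect only how far these samples vary, which may be technical. Values in every library are given for the 5 regulators, for the 6 listed genes with the smallest adjusted p called in each direction in each comparison, and for Scd1 and Scd2. The listed genes and the other lists were chosen with earlier results of these data known. Alternatives were another pseudocount (0.1), no filter, median-of-ratios scaling, only the compared groups, no variance trend, a block for the library series and leaving out each library. Some listed genes are not reported here.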

Additional observations from a re-analysis of the deposited data

How the results depend on the processing

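No listed gene with a call changed direction under any alternative. With only the 2 compared groups in the fit, the count of listed genes lower in deficient than in control pre-plasmablasts was 5 in place of 9, and against activated B cells deficient pre-plasmablasts had 0 higher in place of 1 and 8 lower in place of 14. Over all genes the share called was then 30.9% in place of 40.4% against control pre-plasmablasts and 11.8% in place of 18.0% against activated B cells. For GSK343 against DMSO, no filter gave 0 higher and 0 lower in place of 2 and 5, median-of-ratios scaling gave 10 lower and no variance trend gave 1 lower. Leaving out 1 library at a time gave these ranges: for control pre-plasmablasts against activated B cells 4 to 4 higher and 14 to 20 lower, for plasmablasts against control pre-plasmablasts 0 to 0 in both directions, for plasmablasts against activated B cells 4 to 4 higher and 17 to 22 lower, for deficient against control pre-plasmablasts 5 to 8 higher and 5 to 7 lower, for deficient pre-plasmablasts against activated B cells 0 to 0 higher and 6 to 14 lower, and for GSK343 against DMSO 0 to 4 higher and 1 to 6 lower. Over all genes, the share called between plasmablasts and control pre-plasmablasts was 2.34%, against 1.83% with a pseudocount of 0.1, 0.22% to 1.44% with a library left out and 1 gene higher with only the 2 groups, and the share between deficient pre-plasmablasts and activated B cells was 18.0%, against 11.8% with only the 2 groups and 6.90% to 9.14% without a library of either group. That for GSK343 against DMSO was 18.6%, against 8.67% and 8.08% without the first and the second GSK343 library, and that for deficient against control pre-plasmablasts 40.4%, against 28.1% without the first deficient library. A lone library was assumed to vary like the other groups. Over all genes too the share called fell with each library left out, except for GSK343 against DMSO without the first DMSO library. With plasma cell names as deposited, the median level of the listed genes was 1.047 RPKM in place of 11.37 RPKM. The cause of these moves was not tested.

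Library numbers fall into 2 series, and libraries of the same series deviated together from their group means across genes (r 0.666 to 0.781 over 6 pairs of groups), but no label says what a number means. With the series as a replicate block, 7 listed genes were lower in plasmablasts than in control pre-plasmablasts in place of 0, 14 higher in deficient than in control pre-plasmablasts in place of 8, and 23 lower in deficient pre-plasmablasts than in activated B cells in place of 14; a block over the accession order of the inhibitor libraries, which pairs nothing by label, gave 9 lower. The block raised the share of all genes called to 20.3%, 65.2% and 42.7% in the first 3 of these comparisons. The direction was the same within both series for every called gene (24, 26, 17 and 15 genes in the 4 comparisons with calls). These genes were called from the same libraries, and groups that do not overlap must have 1 direction in both series. The count therefore adds no separate support.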
